A study of Mus musculus with 2 samples.

Results

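Cytosolic nucleic acid sensing was followed through the cells of 1 mouse tumour library by 10 genes: Cgas, Sting1, Tbk1, Irf3, Irf7, Ifih1, Rigi, Zbp1, Trex1 and Enpp1. They were picked by symbol from a gene table of 33696 entries, and all 10 were found there. The tumours were subcutaneous growths of 4T1, a mouse breast cancer line, in animals labelled WT. One library came from a tumour given PBS, the control, and 1 from a tumour given the treatment labelled PCN, called PATCH in the series title. The labels do not give the number, age or sex of the animals or the dose and time of treatment, nor say what the treatment is. Counts of the PBS library were not analysed here, so every value below describes the treated tumour and no effect of the treatment was measured. With 1 library there is no replicate and no test. Intervals are exact 95% intervals that cover counting error only.

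Cells sense misplaced DNA through cGAS, the enzyme encoded by Cgas, which makes the small messenger cGAMP when it binds double-stranded DNA. cGAMP binds STING (Sting1), which recruits the kinase TBK1, and TBK1 phosphorylates the transcription factors IRF3 and IRF7 that switch on type I interferon genes. RIG-I (Rigi) and MDA5 (Ifih1) sense viral and other double-stranded RNA and reach the same kinase through the adaptor MAVS. ZBP1 binds Z-form nucleic acids and can start cell death through RIPK3, TREX1 degrades cytosolic DNA, and ENPP1 degrades cGAMP outside cells. In tumours the route from DNA to interferon is known to act in myeloid cells as well as in the cancer cells. Several of these genes, Irf7, Ifih1, Rigi and Zbp1 among them, are themselves induced by interferon.

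The authors kept 10835 cells with 60652188 unique molecular identifiers (UMIs, 1 per captured RNA molecule) and a median of 3575 per cell, out of 12309 barcodes. Of the 11643 barcodes the authors list for the control, 37 occur in this matrix, and 33 barcodes stand in both lists. Cells were put into classes by the share of their UMIs from a few marker genes, the first matching rule deciding. This gave 3518 neutrophil cells (median 1698 UMIs), 325 fibroblast cells (11662), 322 tumour cells (11176.5), 238 T/NK cells (2916.5) and 4672 macrophage cells (7168.5). The remaining 1760 cells matched none of the 5 rules and were a mixture. They held genes of B, endothelial, dendritic and osteoclast cells. Myeloid genes were there too, with Mrc1 at 429 CPM and Cd68 at 180, against 1027 and 269 in macrophages. Each class was checked with 5 markers outside its rule, and each marker was highest in its class except Mmp9, at 622 CPM in neutrophils and 1081 in the cells of none of the 5, and Cldn3, at 0 in tumour cells. In all, 345 cells met the rules of more than 1 class, and 311 of them fell into the neutrophil class because that rule came first. Levels are in CPM, a gene's UMIs for each 1000000 UMIs counted in the class.

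Irf7, Ifih1, Rigi and Zbp1 were each higher in macrophages and neutrophils with more RNA of other interferon-induced genes, as described further on, and the promoters of 3 of them are shown here for that reason. RefSeq's table for build GRCm38.p6 holds 250 bases before to 50 bases after each gene's start. It gave promoters for 8 of the 10 genes, Rigi under its older symbol Ddx58, and none for Sting1 and Zbp1. Each was searched on both strands for GAAA followed, after any 2 bases, by a second GAAA. This is a core of the interferon-stimulated response element to which interferon-activated factors bind, and the search used no other motif. The line for Ifih1 is chr2:62646206-62646505 on the minus strand, that for Rigi chr4:40239776-40240075 on the minus strand and that for Irf7 chr7:141266375-141266674 on the minus strand. Each is written 5′ to 3′ along its gene, and capitals mark a match.
Ifih1: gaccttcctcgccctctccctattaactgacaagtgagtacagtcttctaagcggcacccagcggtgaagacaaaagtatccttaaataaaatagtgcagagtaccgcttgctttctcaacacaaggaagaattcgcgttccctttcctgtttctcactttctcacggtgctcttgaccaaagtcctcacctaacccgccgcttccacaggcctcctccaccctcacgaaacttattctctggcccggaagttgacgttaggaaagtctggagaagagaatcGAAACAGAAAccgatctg
Rigi: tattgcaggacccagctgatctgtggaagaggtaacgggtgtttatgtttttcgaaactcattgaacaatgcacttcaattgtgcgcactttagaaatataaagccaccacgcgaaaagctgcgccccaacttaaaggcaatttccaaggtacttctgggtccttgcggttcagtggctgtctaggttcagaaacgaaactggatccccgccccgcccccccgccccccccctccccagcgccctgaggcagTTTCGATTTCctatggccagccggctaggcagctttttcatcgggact
Irf7: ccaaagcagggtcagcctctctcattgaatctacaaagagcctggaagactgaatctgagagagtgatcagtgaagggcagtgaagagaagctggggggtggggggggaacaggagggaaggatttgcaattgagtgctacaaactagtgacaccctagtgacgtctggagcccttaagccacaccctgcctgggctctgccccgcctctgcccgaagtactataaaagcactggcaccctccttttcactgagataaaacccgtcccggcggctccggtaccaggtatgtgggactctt
The match in Ifih1 lies on the gene's own strand 32 bases after the start, and that in Rigi lies on the opposite strand 2 bases after the start. These were the 2 members with a match among the 8 read. Of all 32851 promoters listed, 1131 held one (3.44%). Counted by gene, as for the members, 1079 of 27025 genes held one (3.99%). Of 11 interferon effector genes with a promoter in the table, 6 held one. A match is a description of letters, and Irf7 had none in this window.

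Over all kept cells, Tbk1 had 5124 UMIs in 3488 cells, Ifih1 2341 in 1463, Irf7 2321 in 1270 and Zbp1 2202 in 1416. Sting1 had 1546 UMIs in 1205 cells, Rigi 1519 in 1168 and Enpp1 1358 in 980. Irf3 had 740 in 689 cells and Cgas 626 in 528, so most cells that held either gene held a single UMI of it. Trex1 was listed at 0 in all 12309 barcodes. With 10835 kept cells a count of 0, taken to allow 3, allows up to 0.0277% of cells with a UMI. In the GENCODE M21 annotation all 1147 exonic bases of Trex1 lie inside exons of Atrip on the same strand, and Atrip had 263 UMIs in kept cells. Whether Trex1 reads were lost to this overlap was not tested. The other overlaps were on the opposite strand and short, 201 bases of Cgas, 88 of Irf3 and 45 of Irf7.

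Macrophages held the highest level of 5 of the 9 detected genes: Cgas, Sting1, Irf7, Ifih1 and Enpp1. Of 16445 genes with enough UMIs, 10.6% were highest in that class. Tbk1 and Rigi were highest in neutrophils, Irf3 in tumour cells and Zbp1 in T/NK cells. The first place was apart from the second, with an interval of the ratio above 1, for Tbk1, Irf7 and Ifih1 only. For the other 6 genes the leading class and the next could not be separated at this depth. How many of all genes had a leading class apart from the next was not counted.

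**Figure D1:**
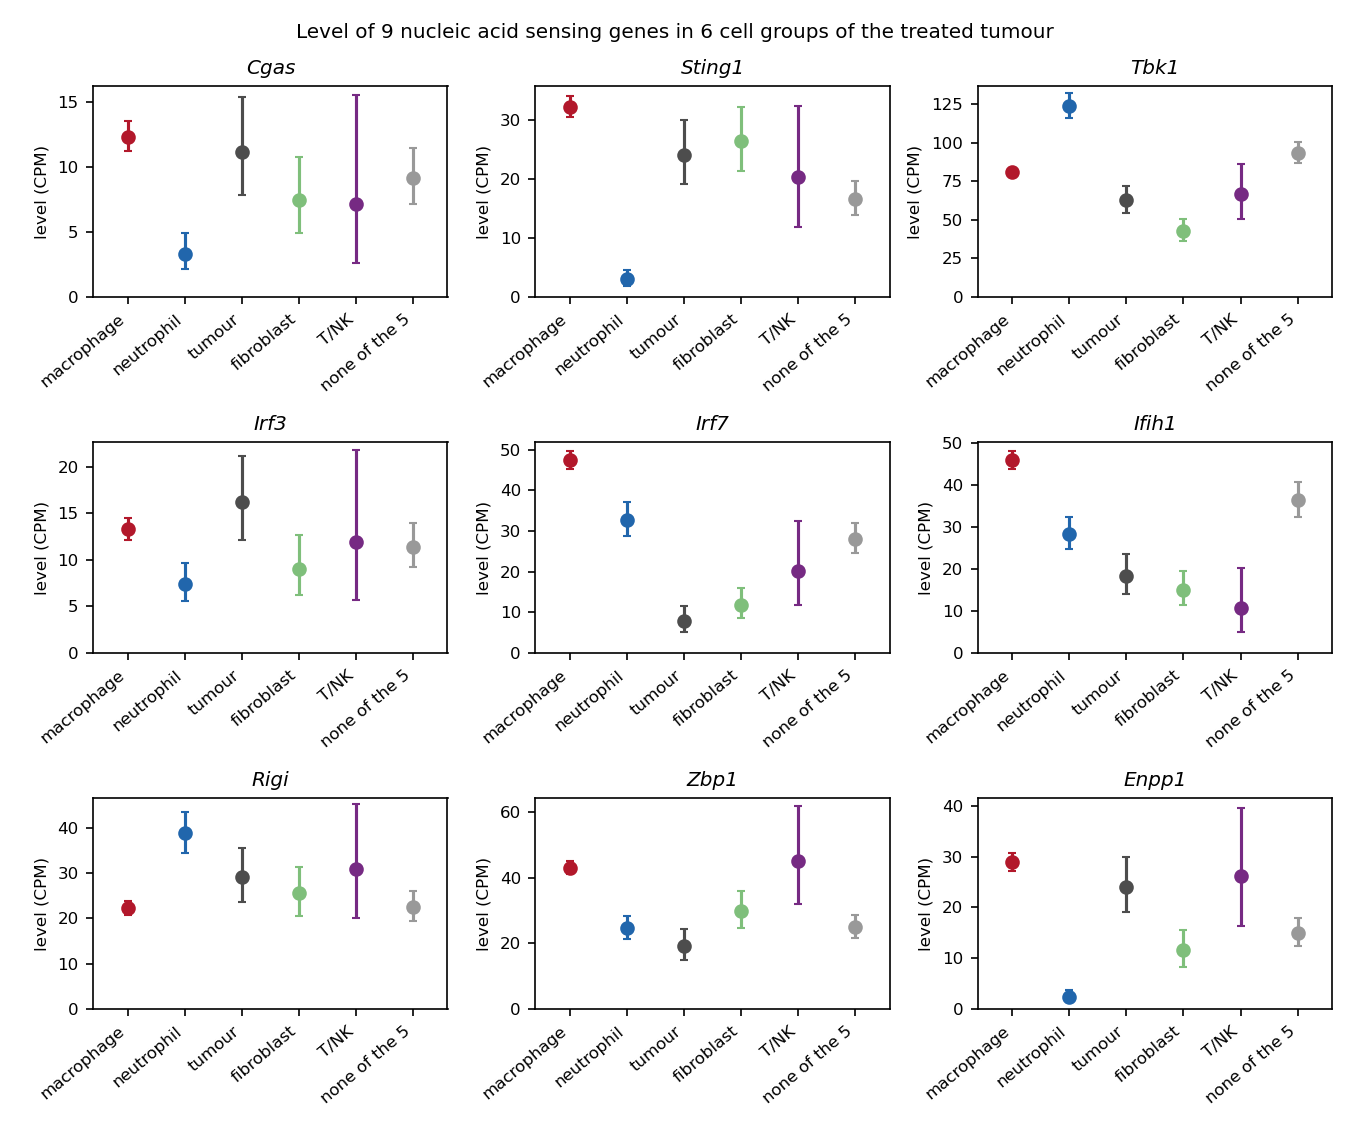
Level of each of the 9 detected genes (CPM, linear axis from 0) in the 5 classes and in the cells of none of the 5, with the exact 95% counting interval. Sting1 and Enpp1 are near 3 CPM in neutrophils and at 11.5 CPM or more in every other group, while Tbk1 is highest in neutrophils at 124 CPM.

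The DNA sensor Cgas was thinly covered in every class. Its level was 12.3 CPM in macrophages (11.2 to 13.5), 11.1 in tumour cells (7.83 to 15.3), 9.11 in the cells of none of the 5, 7.41 in fibroblasts, 7.14 in T/NK cells and 3.32 in neutrophils (2.15 to 4.90). No class differed from its neighbour in this order beyond counting error, but macrophages stood 3.70-fold above neutrophils (2.48 to 5.78). A Cgas UMI was seen in 8.07% of macrophages, 9.94% of tumour cells and 0.682% of neutrophils. Neutrophils held fewer UMIs per cell, and with each cell thinned to 1000 UMIs these shares were 1.27%, 1.44% and 0.368%.

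Sting1, the adaptor that cGAMP binds, was present in macrophages, fibroblasts, tumour cells and T/NK cells and was low in neutrophils. Macrophages had 32.2 CPM (30.4 to 34.1), fibroblasts 26.4 (21.3 to 32.2), tumour cells 24.0 (19.1 to 29.9), T/NK cells 20.2 (11.8 to 32.4) and the cells of none of the 5 16.5 (13.9 to 19.5). Neighbours among these did not differ beyond counting error. Neutrophils had 3.06 CPM (1.94 to 4.59), from 23 UMIs in 22 of 3518 cells, which is 10.5-fold below macrophages (6.99 to 16.7). The 10 macrophage markers of the class rule and its check stood in neutrophils at 6.73% to 29.3% of their macrophage level. C1qa, C1qb, C1qc, Mrc1, Ms4a7 and Apoe were at 6.73% to 8.48%, Adgre1 was at 12.1%, and Csf1r, Lyz2 and Cd68 were at 15.1%, 18.3% and 29.3%. Sting1, at 9.49% (5.99 to 14.3), was within that range, which is wide. Whether its neutrophil UMIs are background was not tested. Cgas, at 27.0% (17.3 to 40.4), was also inside the range, near its upper end. Without the cells meeting several class rules, the 10 markers were at 2.80% to 27.3%, Sting1 was at 5.46% (2.72 to 9.80), and its ratio of macrophages to neutrophils was 18.3. Cgas was then at 28.6% (17.7 to 43.8), above all 10 markers, though its interval included the highest of them. A Sting1 UMI was found in 19.3% of macrophages and 0.625% of neutrophils, or 3.23% and 0.268% after thinning to 1000 UMIs.

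Enpp1, which removes cGAMP outside the cell, showed the same contrast. It stood at 28.9 CPM in macrophages (27.2 to 30.7), 26.2 in T/NK cells (16.4 to 39.6), 24.0 in tumour cells (19.1 to 29.9), 14.9 in the cells of none of the 5, 11.5 in fibroblasts and 2.39 in neutrophils (1.42 to 3.78). The first 3 could not be ordered, and tumour cells were above the cells of none of the 5. Macrophages exceeded neutrophils 12.1-fold (7.62 to 20.5). The neutrophil level was 8.26% of that in macrophages (4.88 to 13.1), again within the range of the 10 macrophage markers. Cells with a UMI made up 16.3% of macrophages, 18.6% of tumour cells and 0.426% of neutrophils, and 2.99%, 1.80% and 0.1004% once thinned. Leaving out cells of several rules gave a ratio of 16.5, and thinning gave 31.5 from only 3 neutrophil cells.

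Tbk1, the kinase shared by the DNA and RNA routes, ran the other way. Neutrophils had 124 CPM (116 to 132), the cells of none of the 5 93.8 (87.3 to 101), macrophages 80.8 (78.0 to 83.8), T/NK cells 66.6 (50.3 to 86.5), tumour cells 62.8 (54.6 to 71.9) and fibroblasts 43.1 (36.6 to 50.4). Neutrophils, the cells of none of the 5 and macrophages were apart from each other in this order, and fibroblasts were below tumour cells. A Tbk1 UMI was seen in 21.0% of neutrophils and 41.4% of macrophages, but at 1000 UMIs per cell in 12.6% and 7.21%. The order by share of cells therefore turned once depth was equal. Per 1000 cells, with no scaling for depth, neutrophils held 265 Tbk1 UMIs and macrophages 641, so the direction holds for the level relative to other RNA and not for molecules per captured cell.

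IRF3 is the interferon factor that cells hold ready, whereas IRF7 builds up under interferon, and the 2 genes were spread differently. Irf3 was low in every group: 16.2 CPM in tumour cells (12.2 to 21.2), 13.3 in macrophages (12.1 to 14.5), 11.9 in T/NK cells, 11.4 in the cells of none of the 5, 9.06 in fibroblasts and 7.44 in neutrophils (5.62 to 9.66). No neighbours differed, and macrophages were 1.79-fold above neutrophils (1.35 to 2.40). Irf7 ranged from 47.4 CPM in macrophages (45.2 to 49.7) through 32.7 in neutrophils (28.7 to 37.0), 28.1 in the cells of none of the 5, 20.2 in T/NK cells and 11.8 in fibroblasts to 7.81 in tumour cells (5.10 to 11.4). Macrophages were above neutrophils, and no later pair of neighbours differed. A UMI of Irf7 was in 18.7% of macrophages, 5.69% of neutrophils and 7.14% of tumour cells, and in 4.06%, 2.85% and 1.08% after thinning.

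The RNA sensors Ifih1 and Rigi split between macrophages and neutrophils. Ifih1 had 45.9 CPM in macrophages (43.7 to 48.1), 36.4 in the cells of none of the 5, 28.4 in neutrophils (24.8 to 32.5), 18.3 in tumour cells (14.02 to 23.6), 15.1 in fibroblasts and 10.7 in T/NK cells (4.89 to 20.3), with the first 4 apart from each other. Rigi had 38.8 CPM in neutrophils (34.5 to 43.5), 30.9 in T/NK cells (20.2 to 45.3), 29.2 in tumour cells (23.6 to 35.6), 25.5 in fibroblasts, 22.6 in the cells of none of the 5 and 22.2 in macrophages (20.8 to 23.8). Neighbours did not differ, but neutrophils were above macrophages, whose level was 0.573 of theirs (0.501 to 0.658). At 1000 UMIs per cell a Rigi UMI was seen in 3.55% of neutrophils and 1.91% of macrophages, against 7.13% and 13.2% of unthinned cells. An Ifih1 UMI was seen in 2.44% and 4.61% of thinned cells, against 4.72% and 21.9% of unthinned cells. Per 1000 cells Rigi was 2.13-fold higher in macrophages, so its direction too depends on scaling by total RNA.

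Zbp1, the Z-nucleic acid sensor, was highest in T/NK cells at 45.2 CPM (32.0 to 62.0) and in macrophages at 43.1 (41.1 to 45.3), which could not be separated. Fibroblasts had 29.9 CPM (24.6 to 36.1), the cells of none of the 5 24.9, neutrophils 24.7 (21.3 to 28.5) and tumour cells 19.2 (14.8 to 24.6). Macrophages were above fibroblasts, and no later neighbours differed. Zbp1 UMIs were in 13.4% of T/NK cells, 21.1% of macrophages and 13.7% of tumour cells, and in 3.93%, 4.48% and 1.44% after thinning.

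The contrast of macrophages with neutrophils was then set against all genes. A gene was called at 2-fold with at least 20 UMIs over both classes. Of the 9 members 3 were higher in macrophages, Cgas, Sting1 and Enpp1, beside 51.4% of 14520 genes. None was at least 2-fold lower, beside 12.7%, though Rigi passed that line without the 50 most abundant genes (0.48) and with thinning (0.49). With only 9 members, 3 called higher is not read as different from 51.4%, and the count was 4 with class thresholds doubled or with thinning. The median log2 ratio was 0.80 over the members and 1.01 over all genes. The 50 most abundant genes took 33.3% of neutrophil UMIs and 21.0% of macrophage UMIs, which lowers every other gene in neutrophil CPM, and with those genes left out the Sting1 ratio was 8.91 and that of Tbk1 0.55.

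Tumour cells were next compared with macrophages. None was at least 2-fold higher in tumour cells, beside 28.5% of 14660 genes, and 3 were at least 2-fold lower, beside 21.6%. Irf7 was at 0.165 of the macrophage level (0.107 to 0.242), Ifih1 at 0.399 (0.304 to 0.516) and Zbp1 at 0.446 (0.342 to 0.572). Sting1 was at 0.747 (0.588 to 0.937), Tbk1 at 0.777 (0.672 to 0.894) and Rigi at 1.31 (1.05 to 1.62). For Cgas, at 0.904, Irf3, at 1.22, and Enpp1, at 0.831, the intervals included 1. With each cell weighted equally the ratio of Ifih1 was 0.86, which ends its call, and with thinning it was 0.21. The ratio of Sting1 was 1.01 with equal weighting and 0.437 with thinning, which is past the 2-fold line.

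**Figure D2:**
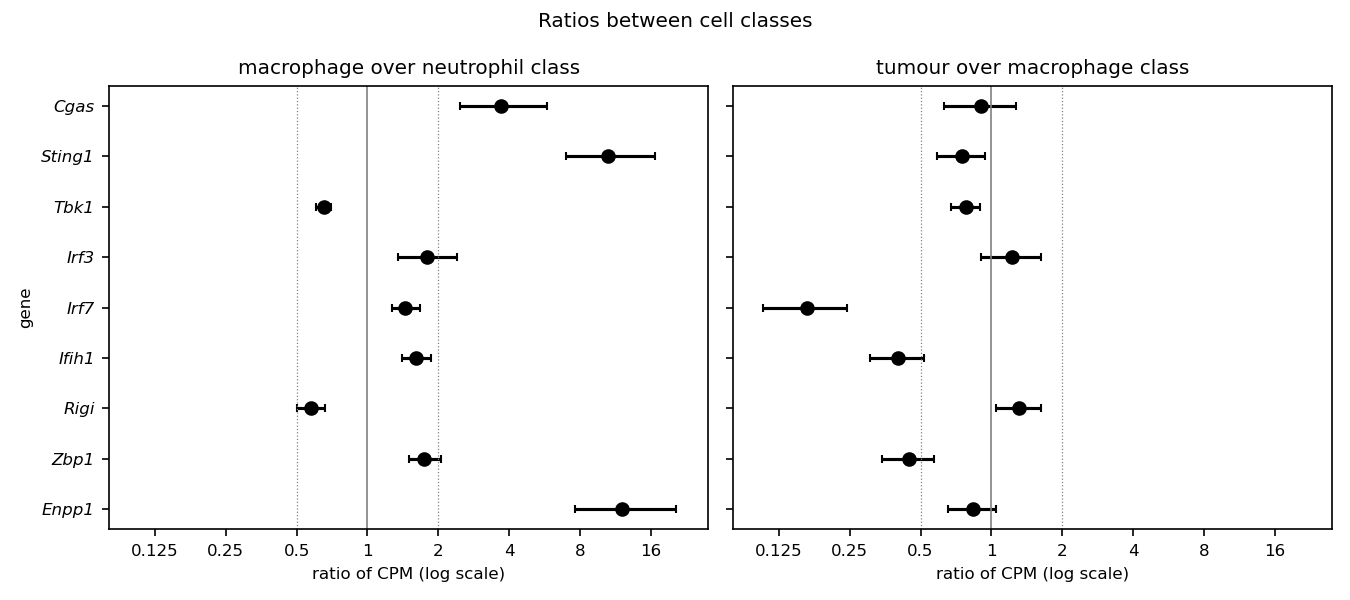
Ratio of CPM between classes for the 9 detected genes on a log axis, macrophage over neutrophil on the left and tumour over macrophage on the right, with exact 95% counting intervals, a solid line at 1 and dotted lines at 2-fold either way. Sting1 (10.5) and Enpp1 (12.1) lie far to the right in the left panel, and Irf7 (0.165) lies far to the left in the right panel.

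Cells were then ordered by their own interferon response. In each cell thinned to 1000 UMIs, the UMIs of 14 effector genes that interferon induces (such as Isg15, Rsad2, Ifit2, Mx1 and Cxcl10, none of them a member) were counted. Of the macrophages deep enough, 3582 had none, 759 had 1 to 2, 177 had 3 to 9 and 34 had 10 or more. Their median UMIs were 7314.5, 7433, 8658 and 6244.5. Neutrophils fell into 2135, 639, 185 and 28 cells. The 9 neutrophil markers summed to 1184, 979, 991 and 998 CPM over the macrophage groups, and the 10 macrophage markers to 2781, 1942, 2311 and 834 CPM over the neutrophil groups. The classes' own markers were lower in the last group than in the first, with macrophage markers at 21391 CPM in effector-free and 13435 in effector-high macrophages, and neutrophil markers at 125298 and 89661 CPM in the matching neutrophils. The part of these differences in the results below was not tested. These groups are ranges of a score, not cell types, and 13 macrophages and 16 neutrophils held 9 or 10 effector UMIs, next to the cut.

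Irf7, Ifih1, Rigi and Zbp1 were higher in macrophages at each step of effector UMIs. Irf7 had 24.5 CPM in effector-free macrophages, then 79.4, 274 and 527. Ifih1 went from 31.4 through 66.8 and 159 to 499, and Rigi from 15.9 through 30.6 and 78.3 to 209. Zbp1 went from 27.2 through 74.8 and 171 to 327. Between the end groups the ratios were 21.6 for Irf7 (17.7 to 26.0), 15.9 for Ifih1 (13.0 to 19.2), 13.1 for Rigi (9.64 to 17.6) and 12.0 for Zbp1 (9.42 to 15.1). With a cut at 5 effector UMIs they were 16.3, 10.1, 7.95 and 8.82.

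Cgas, Sting1, Tbk1 and Irf3 had smaller ratios. Cgas had 10.7, 14.7, 27.4 and 49.1 CPM in the same 4 groups, the last from 12 UMIs, and a ratio of 4.60 (2.35 to 8.15). After thinning, no Cgas UMI was left in the 34 cells, and with a cut at 5 effector UMIs the ratio was 2.70. Sting1 had 28.6, 39.7, 65.0 and 69.5 CPM, a ratio of 2.43 (1.41 to 3.92), which was 1.82 with class thresholds doubled and so below the 2-fold line. Tbk1 had 77.8, 89.9, 91.7 and 135 CPM, a ratio of 1.73 (1.19 to 2.44), 2.67 with thinning. Irf3 had 13.5, 12.6, 13.4 and 16.4 CPM, the last from 4 UMIs, and its ratio of 1.22 (0.33 to 3.14) ran from 0.40 with doubled class thresholds to 2.51 with thinning. Enpp1 ran opposite to the rest, at 29.7, 30.2, 12.7 and 8.18 CPM, the last from 2 UMIs, and its ratio was 0.275 (0.0333 to 0.996) but 0.908 with thinning. The level in the group with 3 to 9 effector UMIs, from 20 UMIs, had an interval of 7.78 to 19.7, below that of effector-free cells (27.8 to 31.8).

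Over this contrast 6 of 9 members were at least 2-fold higher in the effector-high macrophages, beside 11.1% of 13427 genes, and 1, Enpp1, was at least 2-fold lower, beside 37.8%, a call that rests on 2 UMIs and is lost with thinning. The median log2 ratio was 2.26 for the members and 0.02 for all genes.

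In neutrophils too, Irf7, Ifih1, Rigi and Zbp1 were higher with more effector UMIs. Ifih1 had 14.1 CPM in effector-free neutrophils and 37.5, 122 and 508 in the next groups, a ratio of 36.1 between the ends (22.0 to 57.4). Rigi had 24.8, 43.8, 147 and 325 CPM, a ratio of 13.1 (7.29 to 22.2). Zbp1 had 15.4, 37.5, 99.0 and 142 CPM, a ratio of 9.22 (3.60 to 19.9, from 7 UMIs in the last group). Irf7 had 19.2, 51.6, 124 and 122 CPM, a ratio of 6.34 (2.27 to 14.3, from 6 UMIs), with the last 2 groups alike. With a cut at 5 effector UMIs the ratios were 19.1 for Ifih1, 9.05 for Rigi, 11.0 for Zbp1 and 8.54 for Irf7. With class thresholds doubled they were 41.8, 6.72, 10.1 and 4.48 in the same order. Tbk1 had 118, 138, 119 and 81.3 CPM, and its ratio of 0.692 had an interval of 0.188 to 1.78. Of the 6 members with enough UMIs, these 4 were at least 2-fold higher, beside 12.6% of 8342 genes. Irf3, with 0 UMIs against 44, counted as lower, beside 52.6%, but a count of 0 in these few cells allows up to 9.33 times the other level. Cgas, Sting1 and Enpp1 had too few UMIs in neutrophils to enter.

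**Figure D3:**
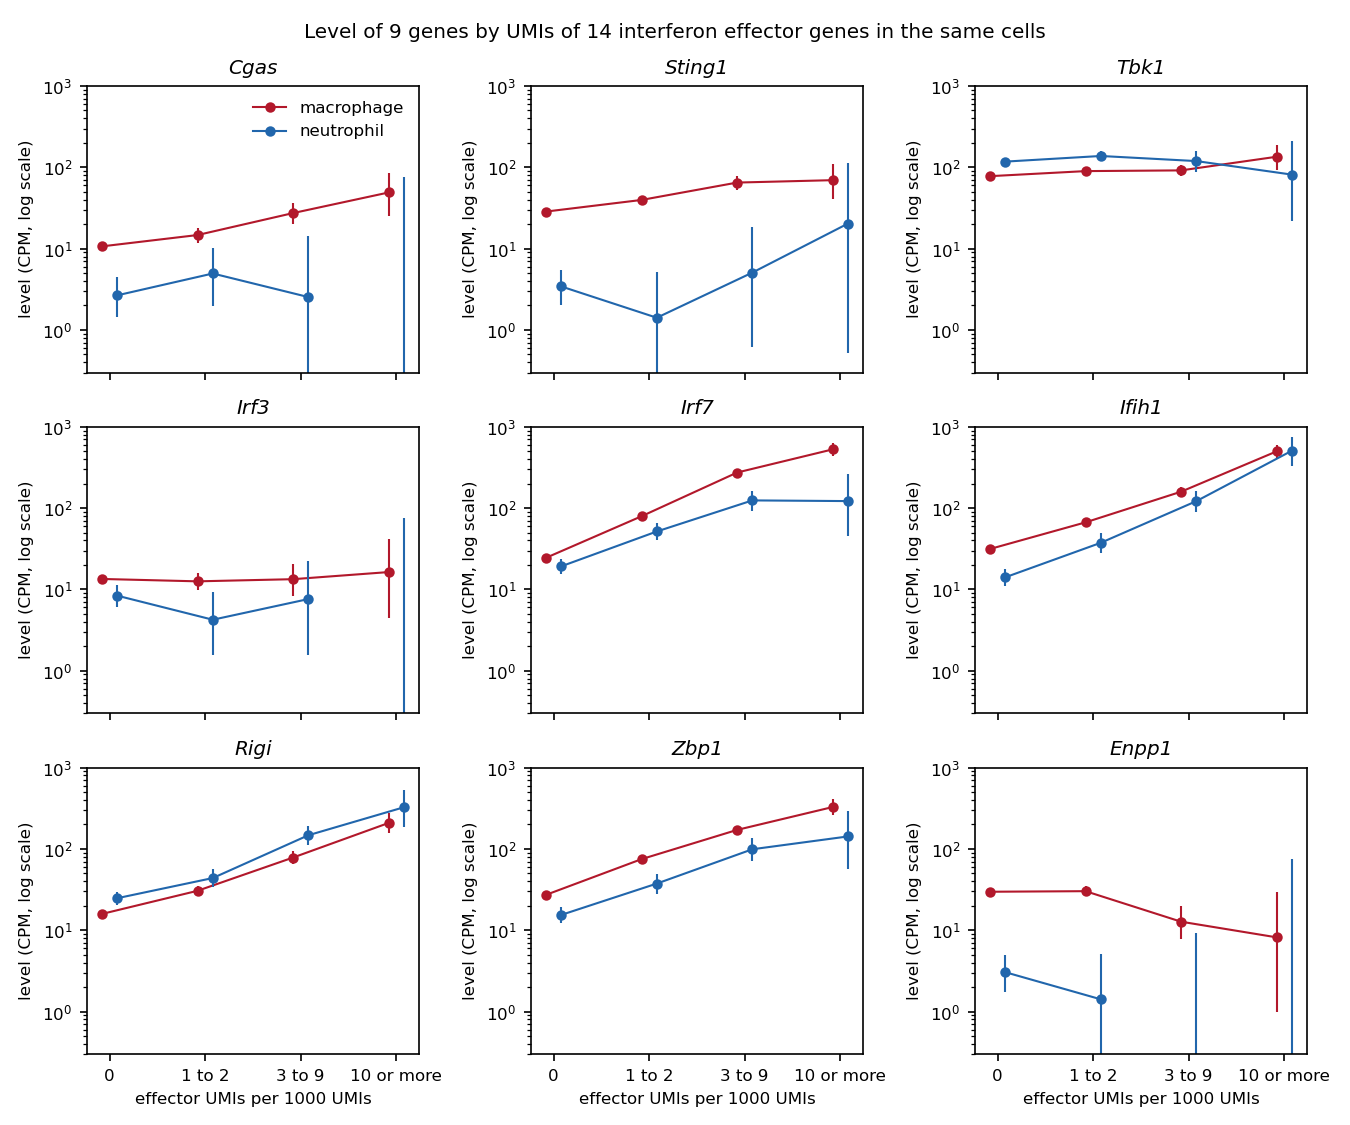
Level of each gene (CPM, log axis) in macrophages and neutrophils grouped by the UMIs of 14 interferon effector genes per 1000 UMIs of the same cell, with exact 95% counting intervals; a bar with no point is a group with 0 UMIs, and bars cut at the lower edge go on below it. Irf7, Ifih1, Rigi and Zbp1 are higher to the right in both classes, Irf3 lies between 12.6 and 16.4 CPM in macrophages and Enpp1 goes there from 29.7 to 8.18 CPM.

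Irf7, Ifih1, Rigi and Zbp1 were also higher in the few tumour cells with effector UMIs. In 28 tumour cells with 1 to 2 effector UMIs, against 246 with none, Rigi had 102 CPM (70.6 to 143) against 17.4 (13.0 to 22.9), from 34 and 51 UMIs. Ifih1 had 57.0 (34.3 to 89.0) against 11.6 (8.05 to 16.2), Zbp1 57.0 (34.3 to 89.0) against 13.3 (9.48 to 18.2) and Irf7 27.0 (12.3 to 51.3) against 5.13 (2.87 to 8.45). None of these intervals overlap, though Irf7 in the 28 cells rested on 9 UMIs. How many of all genes stood apart in this way was not counted, so these are levels of single genes. Sting1, at 21.0 against 24.3, and Tbk1, at 60.0 against 61.2, had intervals that overlapped. After thinning, a UMI was seen in 7.14% of the 28 cells against 1.63% of the others for Rigi. The shares were 10.7% against 0.407% for Zbp1, 7.14% against 0.407% for Irf7 and 0% against 1.22% for Ifih1. Among these shares only the Zbp1 intervals stayed apart. Of myeloid RNA only summed marker genes were compared between these cells. The 10 macrophage markers summed to 318 CPM in the 28 cells, with 1 marker at 0, and to 625 in the 246 others. In macrophages they summed to 21090 CPM. The 9 neutrophil markers summed to 252 CPM in the 28 cells and 631 in the 246 others. Whether RNA of other cells had a part in the levels of Irf7, Ifih1, Rigi and Zbp1 here was not tested.

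In fibroblasts the 4 genes did not all stand apart. In 26 cells with 1 to 2 effector UMIs, against 291 with none, Zbp1 had 69.9 CPM (43.8 to 106) against 24.7 (19.6 to 30.7) and Irf7 38.1 (19.7 to 66.6) against 8.24 (5.43 to 12.0). Intervals overlapped for Ifih1, at 28.6 (13.1 to 54.3) against 12.8 (9.24 to 17.3), and for Rigi, at 35.0 (17.4 to 62.5) against 24.4 (19.4 to 30.4). The share of all genes standing apart between these fibroblast groups was not counted either.

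Clusters of all kept cells, made without the members among the variable genes, placed these levels in finer groups. Of 29 clusters, cluster 10, 359 cells led by Cxcl11, Cxcl10, Rsad2 and Cxcl9 with 90.5% in the macrophage class, had the highest Irf7, at 288 CPM, Zbp1, at 205, and Sting1, at 67.7, of any cluster. Cluster 21, 125 cells led by Rsad2, Isg15, Slfn4 and Ifit1 with 79.2% in the neutrophil class, had the highest Rigi, at 278 CPM, and Ifih1, at 358. Its Zbp1 was 184 CPM and its Irf7 124. Monocyte-type genes Chil3 and Vcan led cluster 8, where Zbp1 was 82.1 CPM and Ifih1 63.2.

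Enpp1 had its peak elsewhere, at 77.7 CPM in cluster 4, 922 cells led by Ccl8, Cd163 and Lyve1, genes of tissue-resident macrophages. It had 49.1 CPM in cluster 19, led by the T cell genes Lef1 and Satb1, 43.4 in cluster 22, led by the antibody genes Igkc and Ighm, and 11.4 in cluster 10. Sting1 was 51.1 CPM in cluster 6, led by Adamdec1 and Cx3cr1, against 23.8 in cluster 4. Cgas had its 2 highest levels, 28.9 and 25.4 CPM, in clusters 18 and 12, both led by cell cycle genes such as Pclaf, Top2a and Ube2c, and 23.4 in cluster 10. Tbk1 was 189 CPM in cluster 3, led by Hcar2, Mreg and Ero1a, 167 in cluster 5 and 47.5 in cluster 14, led by Ngp, Camp and Ltf, genes of immature neutrophils. Its highest level, 257 CPM from 25 UMIs, was in the 56 cells of cluster 28 (median 1337 UMIs, led by Edil3 and Tsix). Ifih1 was at 205 CPM there, from 20 UMIs, and Irf7 was at 0. With 97364 UMIs in that cluster, a count of 0 does not show absence. As the groups were chosen after clustering on the same cells, these levels are descriptions.

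**Figure D4:**
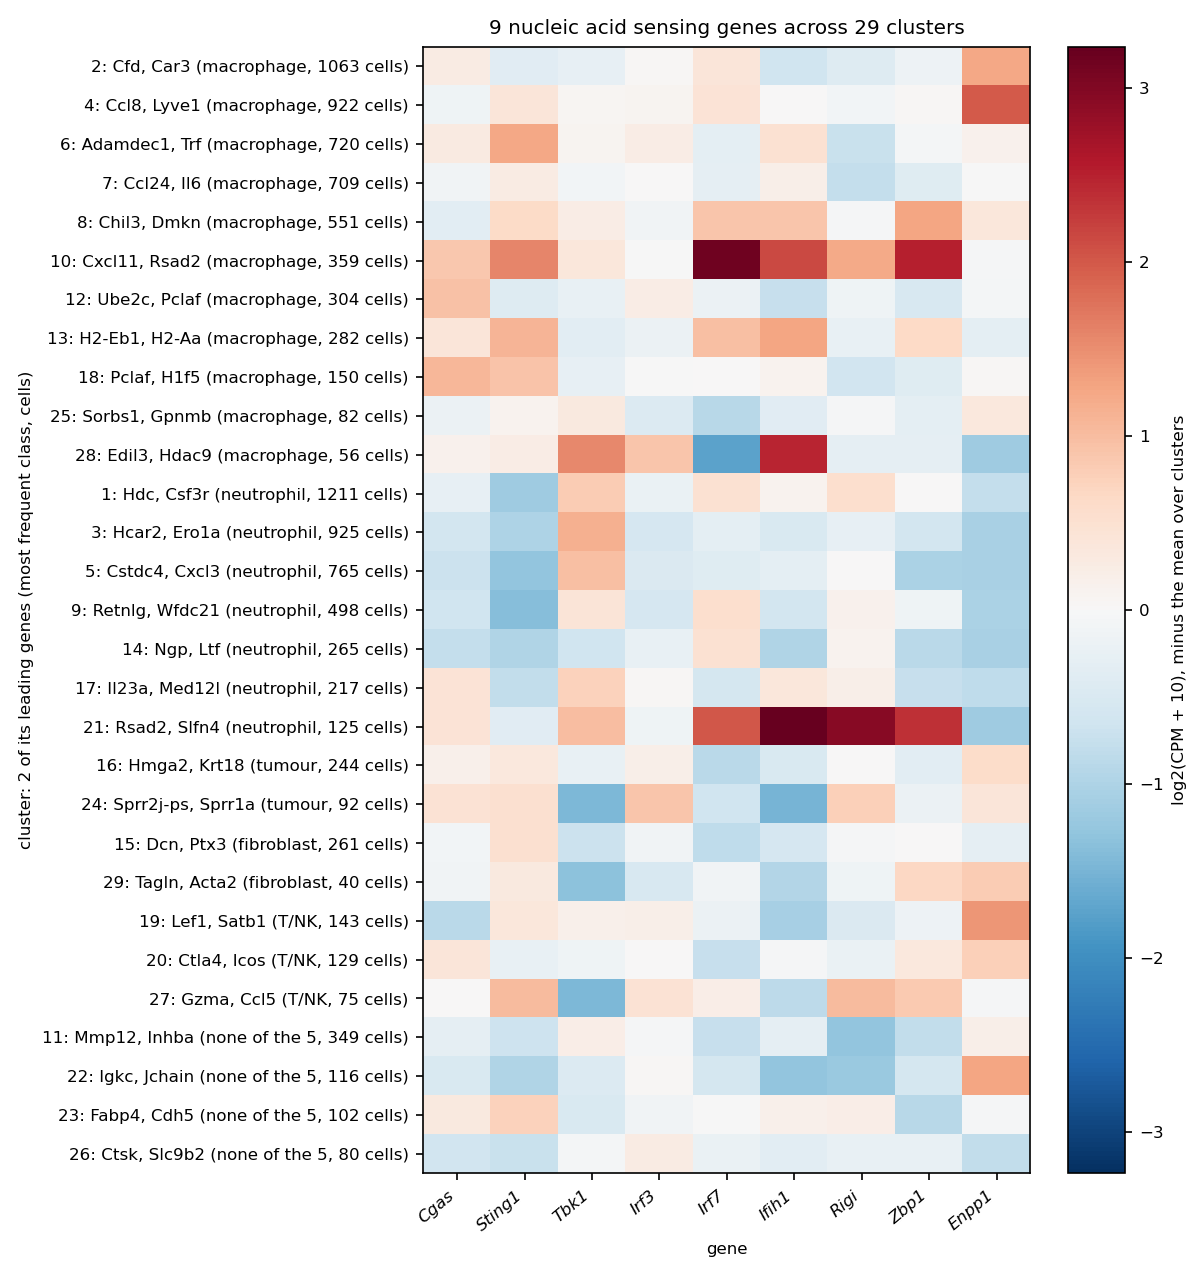
Level of the 9 detected genes in 29 clusters, as log2(CPM + 10) minus the mean of that gene over clusters (colour scale), with rows labelled by cluster number, 2 of its leading genes, its most frequent class and its cells. Clusters 10 and 21 stand out for Irf7, Ifih1, Rigi and Zbp1, cluster 4 for Enpp1, and the neutrophil rows are low for Sting1 and Enpp1.

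Likeness was measured as Pearson's r of log2(CPM + 10) across the 29 clusters, which share 1 library and differ in depth, among 8814 genes with at least 500 UMIs. Among the members, Irf7 and Zbp1 were most alike (r 0.76), followed by Rigi and Zbp1 (0.67), Ifih1 and Zbp1 (0.61), Irf7 and Rigi (0.59), Tbk1 and Ifih1 (0.58) and Cgas and Sting1 (0.54). Ifih1 had 0.47 with Rigi and 0.46 with Irf7. The lowest r was that of Tbk1 and Enpp1 (-0.45), followed by Sting1 and Tbk1 (-0.38), Ifih1 and Enpp1 (-0.37) and Rigi and Enpp1 (-0.35). The genes nearest to Rigi were Usp18 (0.89), Parp10 (0.85) and Isg20 (0.82), and those nearest to Zbp1 were Xaf1 (0.86), Ifi47 (0.85) and Daxx (0.85). Irf7 lay nearest to Dtx3l (0.80), Daxx (0.77) and Usp18 (0.76), and Ifih1 to Nod2 (0.83), Slfn8 (0.83) and Gbp5 (0.82). Sting1 lay nearest to Mndal (0.82), Ifi203 (0.81) and Lgals3bp (0.81), of which the first 2 belong to the DNA-binding family of interferon-inducible p200 proteins. Tbk1 had Gm41409 (0.88), Fem1c (0.87) and Gab2 (0.86), Cgas had Nmral1 (0.77), Gmpr2 (0.73) and Ppp2r5d (0.72), Irf3 had Snhg15 (0.77), Ints9 (0.76) and Rbbp5 (0.75), and Enpp1 had Thumpd3 (0.80), Rcbtb1 (0.79) and Manea (0.79).

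The wider DNA sensing list had 28 of 29 genes with enough UMIs in the contrast of macrophages with neutrophils. There, 19 were at least 2-fold higher in macrophages and 0 lower, beside 51.4% and 12.7% of all genes, with a median log2 ratio of 1.49 against 1.01. After Enpp1 and Sting1 came Slc19a1, the reduced folate carrier, at 11.3-fold (5.45 to 28.4) with 10.5 against 0.930 CPM. Enpp3, a relative of Enpp1, was at 0.647 CPM in macrophages, with 0 UMIs in neutrophils, and stood at 13.7 in fibroblasts. In effector-high macrophages 9 of 28 were higher and 5 lower, beside 11.1% and 37.8% of all genes. Samhd1, which breaks down the building blocks of DNA, was 5.46-fold higher there (4.80 to 6.20) and Ifi204, a p200 protein, 11.4-fold (9.90 to 13.1), both named after their values were seen.

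In the RNA sensing list, 6 of 20 genes were at least 2-fold higher in macrophages than in neutrophils, 1 was lower and 13 lay between. Of all genes 51.4% were higher and 12.7% lower. The median log2 ratio was 0.25 against 1.01 over all genes. With only 20 genes, 2 of them members, the count is not read as different from that of all genes. Mavs, the adaptor that both RNA sensors need, was at 9.87 CPM in macrophages and 1.20 in neutrophils, 8.25-fold apart (4.30 to 18.2). Relative to total RNA, neutrophils thus held more Rigi and less Mavs than macrophages. The helicases Dhx9 and Dhx15 were 4.56-fold (3.67 to 5.72) and 4.33-fold (3.70 to 5.11) higher in macrophages. Rnf125, a ubiquitin ligase that limits RIG-I, was at 1.35 CPM in macrophages, 19.9 in neutrophils and 163 in T/NK cells. In effector-high macrophages 7 of 20 were higher and 1 lower (all genes 11.1% and 37.8%). Dhx58, the third RIG-I-like receptor, was 10.01-fold higher (7.37 to 13.3) and Ddx60, a helicase tied to RIG-I, 19.8-fold (15.2 to 25.4), both named after their values were seen, while Mavs had a ratio of 0.819 (0.0988 to 2.99).

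Around Zbp1, 5 of the 12 genes with enough UMIs were at least 2-fold higher in macrophages than in neutrophils and 1 was lower, beside 51.4% and 12.7% of all genes. Mlkl and Ripk3, which carry out necroptosis, were 9.47-fold (5.38 to 18.4) and 4.49-fold (3.23 to 6.43) higher. Ripk3 was at 22.1 CPM in macrophages and had 0 UMIs in tumour cells, where the exact interval of a count of 0 reaches 1.11 CPM. Mlkl was at 23.4 CPM in tumour cells. Prkra and Abce1, partners of PKR and RNase L, were 5.01-fold (3.46 to 7.54) and 7.22-fold (5.42 to 9.83) higher in macrophages than in neutrophils. In effector-high macrophages 6 of 12 were higher and 4 lower (all genes 11.1% and 37.8%), Mlkl by 5.56-fold upward (3.21 to 9.03).

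Of 16 endosomal sensing genes with enough UMIs, 12 were at least 2-fold higher in macrophages than in neutrophils and 1 was lower, beside 51.4% and 12.7% of all genes, with a median log2 ratio of 1.94. Pld4 and Pld3, which trim DNA and RNA in endosomes, were 14.2-fold (11.0 to 18.7) and 7.75-fold (5.79 to 10.6) higher, the chaperone Hsp90b1 5.83-fold (5.46 to 6.23) and Tlr3, a receptor for double-stranded RNA, 9.17-fold (4.16 to 25.2). Against macrophages, tumour cells were at least 2-fold lower in 13 of 16 of these genes, beside 21.6% of all genes. In the DNA sensing list 6 of 28 were lower there, a share at that background. In effector-high macrophages 2 of 16 were higher and 2 lower (all genes 11.1% and 37.8%), Tlr3 by 12.8-fold upward (7.41 to 20.9).

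The 10 listed interferon genes were seen in few kept cells or none. Ifnb1 had 19 UMIs in 17 of 10835 kept cells, at 0.431 CPM in macrophages and 0.133 in neutrophils, and Ifng, made by T and NK cells, had 19 UMIs in 14 cells, at 13.1 CPM in T/NK cells. The other 8 of the 10 listed, Ifna1, Ifna2, Ifna4, Ifna5, Ifna13, Ifne, Ifnl2 and Ifnl3, were at 0 in kept cells, which allows up to 0.0277% of cells with a UMI for each. Of the 14 interferon effectors, 5 were at least 2-fold higher in macrophages than in neutrophils and 2 lower, beside 51.4% and 12.7% of all genes. Isg15, a ubiquitin-like modifier, was at 67.3 CPM in macrophages and 228 in neutrophils, Ifit2 at 17.9 and 6.38, the antiviral GTPase Mx1 at 15.9 and 1.59 and Ifi44 at 71.3 and 9.57.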

How the data were processed

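Droplet libraries (2) were prepared with the v3 chemistry of 10x Genomics' 3′ kit per the labels' protocols. The authors deposited whole-number UMI counts for each gene in each barcode, from Cell Ranger 8.0.1 per the file headers, with a list naming the kept cells and their library. STAR is also named in the submitters' processing notes. The build and the annotation were not given in the sources used here. All 10835 treated cells were in the matrix. The planned comparison of treated with control tumours could not be run, since control counts were not analysed here. Columns of other samples numbered 0.

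Classes followed marker shares of each cell's UMIs: at least 2% for neutrophil, 0.5% for fibroblast, 0.1% for tumour and T/NK and 0.3% for macrophage genes. UMIs were summed per class to CPM with exact Poisson intervals. Shares of cells have Clopper-Pearson intervals and ratios exact conditional intervals, all at 95%. A call needed a ratio of 2 and 20 UMIs. Shares were repeated on cells thinned to 1000 UMIs (seed 1), which left out 531 neutrophil, 120 macrophage, 44 tumour, 9 T/NK and 5 fibroblast cells. Free RNA was not subtracted and no doublet caller was run. Leaving out the 345 cells meeting several rules stood in for it. Kept cells were clustered by Leiden (leidenalg 0.10.2, 2000 variable genes, 30 components, 15 neighbours, resolution 1) in Python 3.11.15 with numpy 2.4.6 and scipy 1.17.1.

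The ratio step was tested on simulated data. The members, lists and alternatives were chosen with earlier results of these data known. Named beside the members were, per list, up to 4 genes of largest ratio of macrophage to neutrophil class with at least 50 UMIs, and the 3 genes most like each member. Genes that lead a cluster were named with it.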

Additional observations from a re-analysis of the deposited data

Results flagged for a closer look

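The authors left 436 barcodes of the tumour rule unlisted among their kept cells, with a median of 29962.5 UMIs, where the 322 kept tumour cells have 11176.5 and no kept cell exceeds 19989. These barcodes take no part in the comparisons above, yet each of the 9 detected genes had UMIs in them above the limit of a count of 0. Their levels were 14.7 CPM for Cgas, 23.3 for Sting1, 41.3 for Tbk1, 16.4 for Irf3, 11.0 for Irf7, 16.1 for Ifih1, 22.3 for Rigi, 22.6 for Zbp1 and 21.5 for Enpp1. Against kept tumour cells, Tbk1 was at 0.658 of the level (0.562 to 0.773) and Rigi at 0.763 (0.608 to 0.967), and for the other 7 genes the interval included 1. Trex1 was at 0 there too.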

How the results depend on the processing

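With each cell weighted equally, and with UMIs per 1000 cells in place of CPM, 3 rather than 5 of the detected genes were highest in macrophages. With UMIs per 1000 cells all 9, not 3, were at least 2-fold higher in macrophages than in neutrophils. A minimum of 100 UMIs left 2 of the 4 genes called higher in effector-high neutrophils. Counts of members at least 2-fold lower were recomputed as well, an addition made after seeing the data. For macrophages against neutrophils the count was 1 rather than 0 with thinning and without the 50 most abundant genes (Rigi). For tumour cells against macrophages it was 1 rather than 3 with UMIs per 1000 cells. For effector-high macrophages it was 2 rather than 1 with doubled thresholds, and with thinning the 1 gene was Cgas, at 0 UMIs, in place of Enpp1. For effector-high neutrophils it was 2 rather than 1 with UMIs per 1000 cells and 0 with thinning or a minimum of 100 UMIs. The other counts past 2-fold stayed within 1.5 times the reported count under the alternatives run. Of 324 class levels recomputed under 6 settings, 253 stayed inside the reported counting interval and 71 did not, 25 of these with the 50 most abundant genes left out and 21 with thinning. UMIs per 1000 cells are another unit, so levels were not compared there. The highest class of Cgas was tumour with all barcodes and with thinning, and fibroblast with cells weighted equally. For Rigi it was T/NK with thinning or doubled thresholds, and tumour with cells weighted equally. For Sting1 it was tumour with cells weighted equally, and for Enpp1 T/NK with doubled thresholds. For Zbp1 it was macrophage with thinning or without the 50 most abundant genes. No paired analysis was possible because counts of 1 library were used. Precision is limited by the 34 effector-high macrophages, the 28 effector-high neutrophils and the 840732 UMIs of the T/NK class.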

Other observations

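Barcodes left out of the cell list that met the macrophage rule numbered 459, with a median of 22418 UMIs. Cgas was at 21.0 CPM in them (18.2 to 24.2) and at 12.3 in kept macrophages, a ratio of 1.71 (1.44 to 2.02). Irf7 was lower in them, at 29.2 CPM (25.8 to 32.9) against 47.4, and Zbp1 was at 30.4 against 43.1. Enpp1 was lower too, at 21.5 against 28.9, a ratio of 0.745 (0.637 to 0.867). Sting1, Tbk1, Irf3, Ifih1 and Rigi had ratios whose intervals included 1. In 242 left-out barcodes of the fibroblast rule, Enpp1 was at 28.8 CPM (25.1 to 32.9) against 11.5 in kept fibroblasts.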
